A study of Mus musculus with 45 samples.

Results

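The response of the liver to diet was examined in C57Bl/6 (B6) mice, an inbred strain. All liver arrays of that strain were taken, 4 from mice fed a low-fat diet (replicates 1 to 4) and 4 from mice fed a high-fat diet (replicates 13 to 16), 8 out of 45 arrays in all. The other arrays came from liver of 129S6/SvEvTac (129S6) mice, a second inbred strain, and from skeletal muscle and epididymal fat of both strains. All mice were 6 months old, and the RNA on an array was a pool of 2 to 3 animals, so p-values measure the spread between such pools. The 16 liver arrays held 4 of each strain and diet, with no other treatment or allele in the labels. The design text gives the make-up of a single diet without saying which, and the make-up of the other is unknown here. The comparison asks which liver transcripts differ between the diets on the B6 background.

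The liver packages and burns dietary fat. Fatty acids that enter hepatocytes are oxidised in mitochondria and peroxisomes, stored as triglyceride in droplets or exported on lipoproteins, and the nuclear receptor PPARA, which binds fatty acids, induces many genes of these routes. Male mouse liver also carries a programme of steroid and drug metabolism that depends on the pulses of growth hormone, and its hepatocytes secrete most plasma proteins.

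Values are log2 RMA levels, on which 1 unit is a doubling. Each gene is represented by 1 probe set, that with the highest mean over the liver arrays. A difference is high-fat minus low-fat, given ± its standard error with an adjusted p (limma, Benjamini-Hochberg over the 8251 genes), and a gene is called where the adjusted p is under 0.05. The number of arrays, 4 in each group, limits the precision of every difference. In lists of values by array the order is replicates 1, 2, 3 and 4 on low-fat arrays and 13, 14, 15 and 16 on high-fat arrays.

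The groups also differed in ways other than diet. The low-fat arrays had numbers in a run of their own, and the high-fat arrays stood in a run with 2 arrays of 129S6 mice on the low-fat diet, so that diet and array run cannot be told apart within B6. The SD over all probe sets was 1.912, 1.950, 1.921 and 1.982 on the low-fat arrays and 1.888, 1.843, 1.856 and 1.860 on the high-fat arrays, wider in every low-fat array (p = 0.0286 by a two-sided exact permutation test, and no smaller p is possible with 4 against 4 arrays). The 3' minus 5' signal of the Gapdh control, which grows as RNA is broken or copied incompletely, was 1.692, 0.936, 0.824 and 1.576 on the low-fat arrays and 0.319, 0.225, 0.346 and 0.293 on the high-fat arrays (exact p = 0.0286). For the Actb control the same measure ran from 1.259 to 1.590 on low-fat arrays and from 0.449 to 0.850 on high-fat arrays (exact p = 0.0286). Adjusted over these 3 exact tests each p was again 0.0286. The median SD of a gene over the 4 arrays of a group was 0.130 on low-fat arrays and 0.121 on high-fat arrays.

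Hepatocyte markers were abundant on every array, with a mean level over 18 genes from 11.54 to 11.65 on low-fat arrays and from 11.25 to 11.55 on high-fat arrays. Of these 18, 1 was called higher, Hnf4a (5.6%, against 6.21% of all genes). Another 3 were called lower, G6pc, Apoh and Ahsg (16.7%, against 12.0% of all genes). Their median difference was -0.24. It was -0.04 with quantile normalization and 0.01 with the SD of the array as a covariate. The part of this shift in the falls of the hepatocyte gene lists described further on was not tested. Alb, the gene of albumin, read 13.24, 13.27, 13.14 and 13.18 on low-fat arrays and 13.34, 12.62, 13.33 and 13.42 on high-fat arrays. High-fat replicate 13 stood apart from the other 7 arrays. The mean over 21 macrophage markers was 8.12 on that array and from 6.73 to 6.92 on the others, and 19 of the 21 were highest there. It was also the highest array for 36 of 49 genes of histocompatibility and interferon and for 12 of 20 skeletal muscle markers. The values of Cd74, the invariant chain of class II molecules (12.51 against 9.67 to 10.08), of Gbp2, an interferon-induced GTPase (8.76 against 5.11 to 5.71), and of Acta1, skeletal muscle actin (9.57 against 5.28 to 7.48), were picked out after they were seen. Markers of the exocrine pancreas were higher on high-fat replicates 13 and 16, with a mean over 10 genes of 7.35 and 8.05 against 6.58 to 6.81 on the other 6 arrays. Prss2, a trypsinogen picked out in the same way, read 7.11 and 8.54 on those arrays and from 4.31 to 4.46 elsewhere. In pooled tissue, a change in the number of cells of a type and a change in RNA per cell cannot be told apart.

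**Figure D1:**
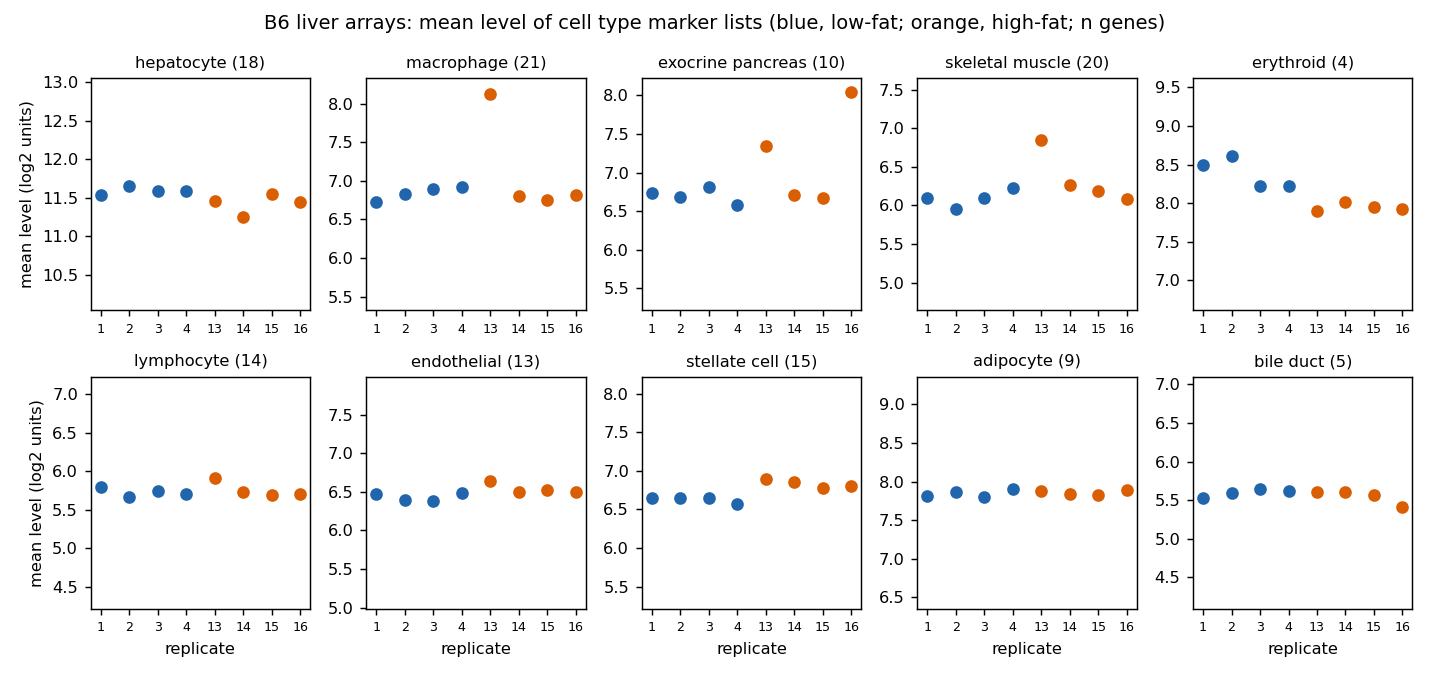
Mean log2 level of 10 marker lists on each B6 liver array, by replicate (blue, low-fat; orange, high-fat; the number of genes stands in each title, and every panel spans 3 log2 units). Replicate 13 was high for macrophage markers (8.12), and replicates 13 and 16 for exocrine pancreas markers (7.35 and 8.05), while hepatocyte markers were at 11.54 to 11.65 on low-fat arrays and at 11.25 to 11.55 on high-fat arrays.

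Of 8251 genes, 1502 were called between the diets (18.2%), 512 higher on the high-fat diet (6.21%) and 990 lower (12.0%). Counts of called members in the gene lists below stand against these shares of 6.21% and 12.0%. The median difference over all genes was 0.02. Changes of 1 log2 unit or more made up 25 of the genes that rose and 38 of those that fell, and most calls were smaller, with a median of 0.41 among the genes that rose and -0.51 among those that fell. The values of the 4 low-fat and 4 high-fat arrays did not overlap for 1351 of the called genes and for 2326 of all genes (28.2%). Genes that fell were brighter on the low-fat arrays (median 8.21) than those that rose (6.38), against 6.55 for all genes. Whichever B6 array was left out, 772 genes were called, 188 higher and 584 lower. The count was 842 without low-fat replicate 4, the lowest of these fits. With the array run as a random block, called the run block in what follows, it was 111, of which 7 were higher and 104 lower. With the SD of the array as a covariate 1006 genes were called, and 453 of them were called the same way without it. With the Gapdh 3' minus 5' signal as a covariate 1673 genes were called, 1102 of them the same way without it. Without high-fat replicates 13 and 16, 563 genes were called.

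**Figure D2:**
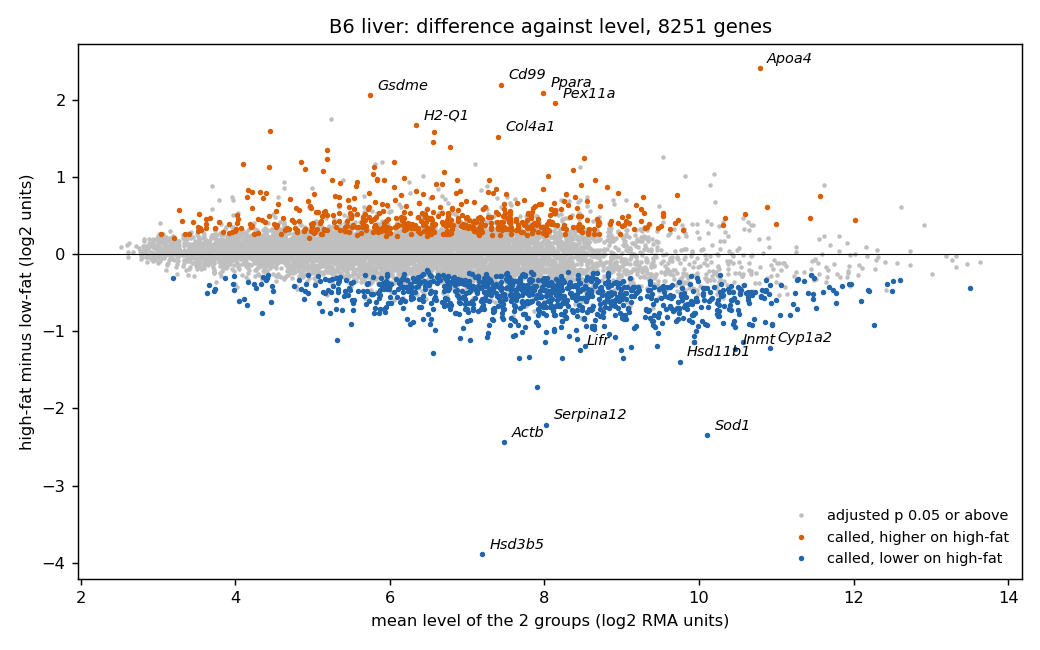
Difference between the diets (high-fat minus low-fat, log2 units) against the mean level of both groups for 8251 genes, with the 512 genes called higher in orange, the 990 called lower in blue and the rest in grey. Called genes that fell lie further to the right, at higher levels, than those that rose, and Hsd3b5 lies lowest at -3.89.

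The promoters of 5 genes are shown for what follows. Apoa4 and Hsd3b5 had the largest differences each way, and Atp5l and Sdhd of the respiratory chain and Keg1 of the growth hormone axis were chosen as genes that fell and hold the motifs, not as typical of their lists. Each is the 250 bases before the gene's start in RefSeq, build GRCm38.p6, 5′ to 3′ on the gene's strand. Capitals mark matches, on either strand, to CCGGAAG, the core bound by ETS factors such as GABP, to TGCGCA, the core of the NRF1 site, to TTCNNNGAA, bound by STAT5, or to AGGNCANAGGNCA, the repeat bound by PPARA with its partner RXR.
Apoa4: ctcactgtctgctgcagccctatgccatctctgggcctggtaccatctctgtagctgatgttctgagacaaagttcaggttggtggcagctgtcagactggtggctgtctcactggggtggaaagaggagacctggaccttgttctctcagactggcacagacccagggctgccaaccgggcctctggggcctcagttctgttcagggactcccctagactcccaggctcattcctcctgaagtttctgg
Hsd3b5: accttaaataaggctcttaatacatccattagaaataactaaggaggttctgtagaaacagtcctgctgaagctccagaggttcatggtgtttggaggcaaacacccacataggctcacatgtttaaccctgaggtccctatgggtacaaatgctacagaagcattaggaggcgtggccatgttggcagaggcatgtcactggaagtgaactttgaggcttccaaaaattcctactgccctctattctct
Atp5l: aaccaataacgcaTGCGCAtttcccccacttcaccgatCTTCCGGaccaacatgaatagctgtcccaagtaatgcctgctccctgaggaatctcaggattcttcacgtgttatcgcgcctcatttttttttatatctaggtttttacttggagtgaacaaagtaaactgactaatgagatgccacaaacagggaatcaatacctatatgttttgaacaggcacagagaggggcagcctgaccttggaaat
Sdhd: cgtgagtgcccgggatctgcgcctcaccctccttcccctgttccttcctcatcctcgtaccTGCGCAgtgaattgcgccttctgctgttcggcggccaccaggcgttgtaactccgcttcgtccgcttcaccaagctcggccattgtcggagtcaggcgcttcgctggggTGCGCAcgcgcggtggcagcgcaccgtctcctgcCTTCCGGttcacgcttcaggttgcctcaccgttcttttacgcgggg
Keg1: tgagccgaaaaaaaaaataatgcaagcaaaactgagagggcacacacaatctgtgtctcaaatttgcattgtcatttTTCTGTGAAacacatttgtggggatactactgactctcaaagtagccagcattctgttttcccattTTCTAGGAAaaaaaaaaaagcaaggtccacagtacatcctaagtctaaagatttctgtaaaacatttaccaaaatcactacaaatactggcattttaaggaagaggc
They lie at chr9:46240594-46240843, plus strand (Apoa4), chr3:98645535-98645784, minus strand (Hsd3b5), chr9:44920743-44920992, minus strand (Atp5l), chr9:50603850-50604099, minus strand (Sdhd) and chr19:12695540-12695789, plus strand (Keg1). Neither Apoa4 nor Hsd3b5 holds any of the 4 motifs in this window, Atp5l and Sdhd hold both CCGGAAG and TGCGCA, and Keg1 holds TTCNNNGAA at 2 places. These matches are descriptions of the letters and not evidence of binding.

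Apolipoprotein A-IV, Apoa4, which is carried on lipoproteins and is secreted more by fatty livers, had the largest rise. It read 8.95, 9.78, 9.42 and 10.18 on low-fat arrays and 11.86, 11.91, 12.08 and 12.10 on high-fat arrays. Every high-fat array was above every low-fat array, and the difference was 2.41 ± 0.19 (adjusted p = 1.05e-06), a change of 5.3 times. Cd99, a cell surface protein, read 6.34, 6.20, 6.59 and 6.27 against 8.94, 8.21, 8.36 and 8.65, a difference of 2.19 ± 0.27 (adjusted p = 7.87e-05). The class I histocompatibility gene H2-Q1 read 5.76, 5.45, 5.30 and 5.51 against 7.01, 7.05, 7.31 and 7.34, a difference of 1.67 ± 0.11 (adjusted p = 2.70e-07). High-fat replicate 13, with its high macrophage markers, was the lowest high-fat array for H2-Q1 and Apoa4 and the highest for Cd99. The 15 largest rises and the 15 largest falls, here and below, were taken among called genes whose groups did not overlap. These 3 were the only genes among the 15 largest rises that were also called with the array run as a random block.

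The receptor PPARA rose with the peroxisome division factor Pex11a, which it is known to induce, but low-fat replicate 1 lay near the high-fat arrays for both. Ppara read 8.45, 6.95, 6.17 and 6.21 on the low-fat arrays and 8.88, 9.27, 8.97 and 9.00 on the high-fat arrays, a difference of 2.09 ± 0.43 (adjusted p = 0.00357). Pex11a read 8.33, 7.10, 6.75 and 6.46 against 9.23, 9.25, 9.04 and 8.93, a difference of 1.96 ± 0.43 (adjusted p = 0.00546). With the SD of the array as a covariate the adjusted p was 0.0868 for Ppara and 0.0686 for Pex11a. Low-fat replicate 1, which had the highest Gapdh 3' minus 5' signal of the 8 arrays, was the highest low-fat array for 11 of the 15 largest rises. The other large rises were Gsdme, a pore-forming gasdermin (2.05 ± 0.44), Dhx36, a helicase of G-quadruplexes (1.60 ± 0.36), Col4a1, a basement membrane collagen (1.52 ± 0.23), Kif5b, a kinesin motor (1.35 ± 0.21), Slc4a4, a bicarbonate transporter (1.23 ± 0.25), Gna13, a G protein (1.19 ± 0.29), Ccl2, a chemokine that draws monocytes (1.19 ± 0.26) and Cyp2j5, a cytochrome P450 (1.17 ± 0.28). Ddx3x, an RNA helicase (1.45 ± 0.39), was no longer called without low-fat replicate 3 or 4 (adjusted p up to 0.0627). The liver transcription factor Hnf4a (1.39 ± 0.42) was no longer called without low-fat replicate 1, 2 or 4 or high-fat replicate 14, 15 or 16 (adjusted p up to 0.0769). Of all 15 rises, 13 were called whichever array was left out.

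The largest fall was that of Hsd3b5, a hydroxysteroid dehydrogenase known for its male-biased expression. It read 8.27, 8.88, 9.83 and 9.57 on low-fat arrays and 4.42, 6.53, 5.24 and 4.79 on high-fat arrays, a difference of -3.89 ± 0.41 (adjusted p = 2.33e-05), or 14.9 times. The groups were far apart, although the high-fat arrays spread over more than 2 units. Serpina12, the insulin-sensitising serpin vaspin, read 8.15, 9.03, 9.55 and 9.79 against 7.63, 6.97, 6.37 and 6.70, a difference of -2.21 ± 0.28 (adjusted p = 1.02e-04). Hsd11b1, which regenerates active glucocorticoid in liver, read 10.42, 10.70, 10.20 and 10.47 against 8.87, 9.26, 9.04 and 9.03, a difference of -1.39 ± 0.15 (adjusted p = 2.03e-05). Hsd17b2, which inactivates oestradiol and testosterone, read 8.38, 8.50, 8.47 and 8.54 against 7.09, 7.14, 7.21 and 7.11, a difference of -1.34 ± 0.11 (adjusted p = 1.30e-06). The arrays of each group lay close together for this gene. Car14, a membrane carbonic anhydrase, read 8.80, 9.13, 8.77 and 8.94 against 7.38, 7.68, 7.61 and 7.57, a difference of -1.35 ± 0.09 (adjusted p = 2.70e-07).

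Sod1, the cytosolic superoxide dismutase, fell by a large amount with an uneven low-fat group. It read 9.98, 11.58, 11.74 and 11.83 on the low-fat arrays and 8.80, 9.31, 9.03 and 8.61 on the high-fat arrays, a difference of -2.35 ± 0.40 (adjusted p = 8.79e-04). Low-fat replicate 1 was the array nearest the high-fat group, and the difference was -2.78 without it. Further large falls were Keg1 (-1.35 ± 0.26), Gsta2, a glutathione transferase (-1.35 ± 0.19), Ccdc58, a mitochondrial protein (-1.29 ± 0.20), Lifr, the receptor of leukaemia inhibitory factor (-1.25 ± 0.19), Hal, the first enzyme of histidine breakdown (-1.25 ± 0.21), Inmt, a methyltransferase of indole amines (-1.23 ± 0.17), Cyp1a2, a cytochrome P450 of drug and caffeine metabolism (-1.21 ± 0.15), Alas2, the erythroid enzyme that starts haem synthesis (-1.20 ± 0.17), and Psen2, a subunit of gamma-secretase (-1.20 ± 0.19). Alas2 is itself 1 of 4 erythroid markers measured. The mean of the 4 was from 8.22 to 8.61 on the low-fat arrays and from 7.90 to 8.01 on the high-fat arrays. These ranges did not overlap, but the mean includes the fall of Alas2. Haemoglobin alpha, Hba-a1, was at 12.37, 12.46, 11.21 and 11.44 against 11.36, 11.07, 11.28 and 10.97, with overlapping groups. The part of blood in the fall of Alas2 was not tested. All 15 of the largest falls, taken among called genes without overlap, were called whichever array was left out. With the array run as a random block 13 of them were called, without Sod1 and Alas2. Actb differed by -2.44, more than Sod1, but its groups overlapped and it is not among the 15.

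**Figure D3:**
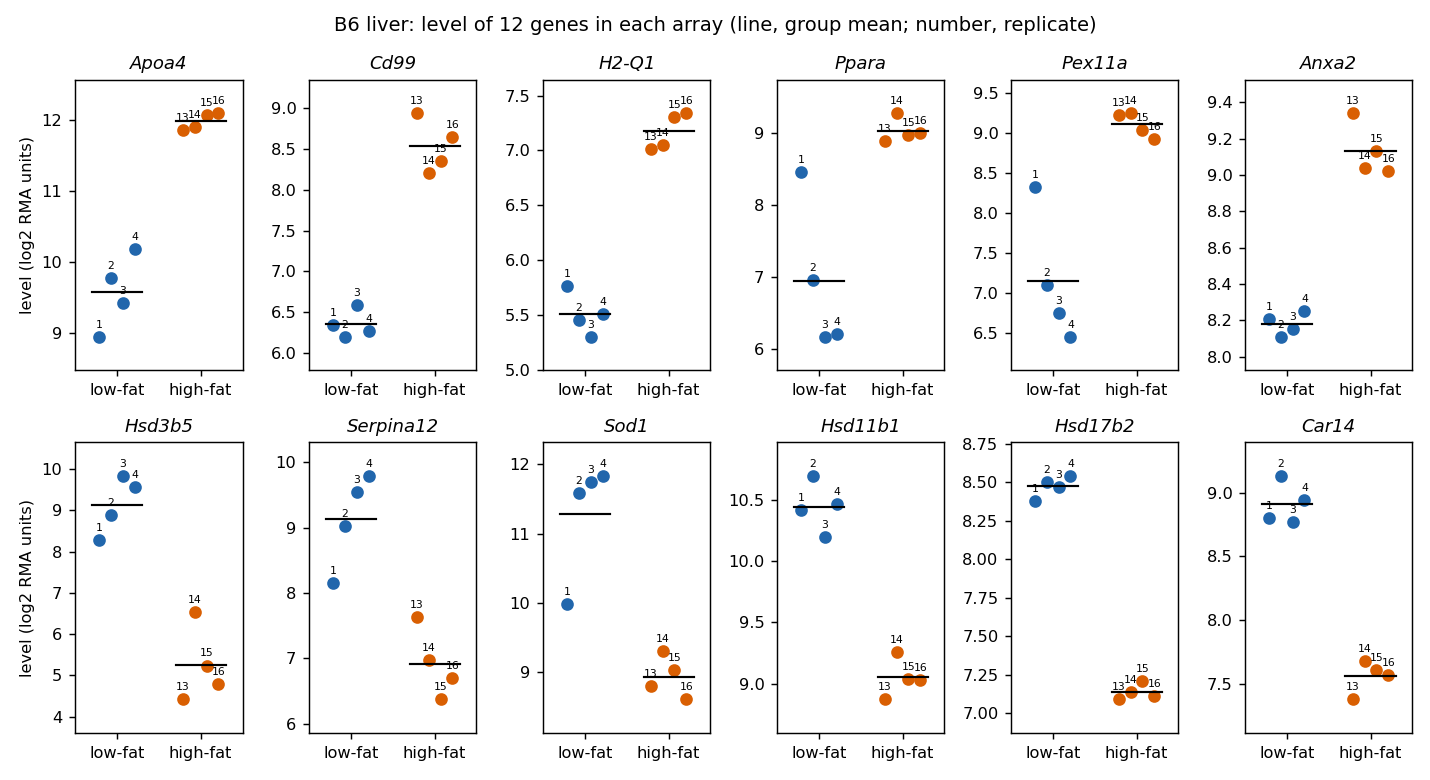
Level (log2 RMA units) of 12 genes on each of the 8 B6 liver arrays, with a line at each group's mean and the replicate number beside each point; the axes differ between panels and do not start at 0. No gene has overlapping groups, which was a condition in choosing the largest changes. Low-fat replicate 1 lies nearest the high-fat arrays for Ppara (8.45), Pex11a (8.33) and Sod1 (9.98).

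Subunits of the respiratory chain, the complexes that pass electrons to oxygen and make ATP, fell in larger number than the members of any other list examined. Of 69 measured genes of the 5 complexes, cytochrome c and some assembly factors included, 43 fell and 1 rose, against 12.0% and 6.21% of all genes, and the median difference was -0.51 against 0.02 over all genes. In complex I, NADH dehydrogenase, 19 of 29 subunits fell and none rose. Ndufb9 read 9.51, 9.48, 9.33 and 9.56 on low-fat arrays and 8.61, 8.70, 8.59 and 8.63 on high-fat arrays, a difference of -0.84 ± 0.10 (adjusted p = 6.76e-05). Ndufb11 (-0.93 ± 0.12), Ndufv3 (-0.88 ± 0.13) and Ndufa3 (-0.89 ± 0.13) fell as well. In complex II, succinate dehydrogenase, all 4 subunits fell. Sdhc, one of its membrane anchors, read 10.59, 10.52, 10.45 and 10.70 against 9.60, 9.62, 9.53 and 9.82, a difference of -0.93 ± 0.09 (adjusted p = 1.18e-05), and Sdhb, its iron-sulphur subunit, read 10.58, 10.61, 10.56 and 10.66 against 9.92, 9.97, 9.90 and 9.71, a difference of -0.73 ± 0.08 (adjusted p = 2.77e-05). Sdhd (-0.51 ± 0.14) was no longer called without low-fat replicate 2 or 4 or high-fat replicate 13 (adjusted p up to 0.0587), nor the flavoprotein Sdha (-0.64 ± 0.20) without low-fat replicate 2 or 4 or high-fat replicate 13, 14 or 15 (up to 0.114).

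Complex III, the cytochrome bc1 complex, had 7 of 9 members lower, led by Uqcr11 (-0.89 ± 0.10), Uqcrq (-0.61 ± 0.08), Uqcrc1 (-0.69 ± 0.12) and Uqcrh (-0.76 ± 0.14). Complex IV, cytochrome c oxidase, had 4 of 15 lower, Cox7a2 (-0.91 ± 0.18), Cox7a2l (-0.52 ± 0.11) and Cox5b (-0.50 ± 0.13) among them. Complex V, ATP synthase, had 9 of 12 lower and 1 higher. Atp5l read 11.01, 11.10, 11.26 and 11.23 against 10.09, 10.35, 10.36 and 10.09, a difference of -0.92 ± 0.13 (adjusted p = 2.33e-04), and Atp5o differed by -0.67 ± 0.08. The member that rose was Atp5g1, a gene of the ring subunit (0.51 ± 0.10). The shift extended to the machinery that makes and imports mitochondrial proteins, in which 29 of 63 genes fell and 1, Mrps18a, rose. Mrps12 (-0.81 ± 0.08), Mrps10 (-0.84 ± 0.09), Mrpl15 (-0.85 ± 0.09) and Mrps24 (-0.95 ± 0.10), proteins of the mitochondrial ribosome, all fell. Mrps18a (0.53 ± 0.16) had overlapping groups and lost its call without low-fat replicate 2, 3 or 4 or high-fat replicate 14 or 16 (adjusted p up to 0.108). With the array run as a random block 10 of the 69 respiratory chain subunits fell and none rose. With the SD of the array as a covariate 18 fell (median -0.25), with quantile normalization 26 (median -0.31), and without high-fat replicates 13 and 16 also 26.

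**Figure D4:**
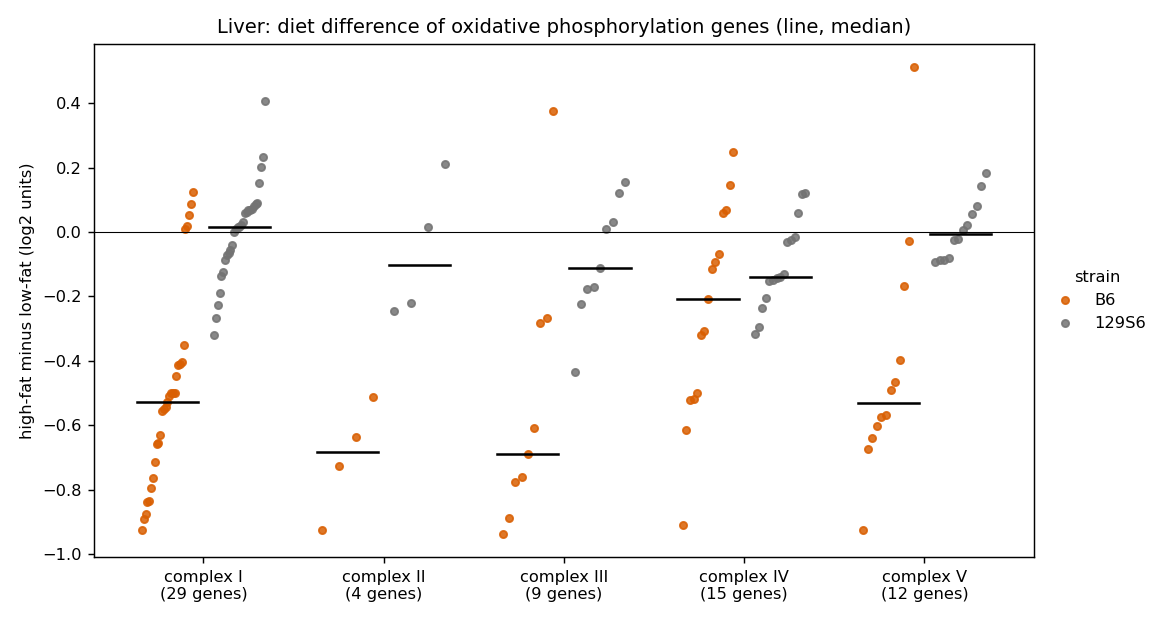
Difference between the diets (high-fat minus low-fat, log2 units) of each measured subunit of the 5 respiratory complexes in liver of B6 mice (orange) and 129S6 mice (grey), with a line at the median and subunits in order of size. The B6 medians are -0.53, -0.68, -0.69, -0.21 and -0.53 for complexes I to V, and the 129S6 medians lie between -0.14 and 0.01.

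In RefSeq promoter windows of 300 bases, from 250 before to 50 after the start, CCGGAAG was found in 32.4% of the 37 respiratory chain genes that fell and had a promoter in the table. Over all 56 respiratory chain genes with a promoter the share was 26.8%. CCGGAAG was found in 27.2% of 836 genes called lower, 10.6% of 388 called higher, 17.1% of 6576 tested genes and 9.93% of all 27025 genes searched. Both motifs stood in 4 of the 37, Atp5l, Cox6a1, Ndufb6 and Sdhd. TGCGCA was found in 32.4% of the same 37 genes and 26.8% of all 56. It was found in 19.1% of genes called lower, 12.1% of those called higher and 14.3% of tested genes. TTCNNNGAA was found in 5 of 27 genes of the growth hormone axis, 18.5%, against 8.5% of tested genes. The 5 were Bcl6, Cish, Igfals, Keg1 and Socs3. The motif was found in 8.97% of genes called lower, 5.93% of those called higher and 9.55% of all genes searched. The PPARA repeat AGGNCANAGGNCA was found in 1 of 33 genes of the PPARA list, Fabp1, and in 0.38% of tested genes. Both strands were searched, matches to different motifs may overlap, and genes without a promoter in the table were not searched.

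Of 27 measured genes of fatty acid oxidation in mitochondria, 7 fell (25.9%, against 12.0% of all genes) and none rose, with a median of -0.20. Without low-fat replicate 4, or without high-fat replicates 13 and 16, 4 fell. With the SD of the array as a covariate 4 fell, 3 rose and the median was 0.18. Echs1, the enoyl-CoA hydratase of short chains, read 10.08, 10.12, 9.94 and 10.23 against 9.41, 9.42, 9.41 and 9.35, a difference of -0.70 ± 0.08 (adjusted p = 4.27e-05). Hsd17b10, a dehydrogenase of branched fatty acids and part of mitochondrial RNase P, read 10.49, 10.48, 10.39 and 10.47 against 9.32, 9.69, 9.40 and 9.41, a difference of -1.0 ± 0.12 (adjusted p = 4.27e-05). Mcee, the epimerase of methylmalonyl-CoA (-0.92 ± 0.12), and Etfb, which passes electrons to the chain (-0.69 ± 0.10), also fell. The gate of the pathway, Cpt1a, was at 10.33, 10.60, 10.04 and 10.73 against 10.83, 10.84, 10.85 and 10.85, a difference of 0.42 ± 0.18 (adjusted p = 0.124), with a high-fat group much tighter than the low-fat group. It was called higher with quantile normalization (0.75, adjusted p = 0.00372), the SD covariate (0.93, adjusted p = 0.00802) and the Gapdh covariate (0.69, adjusted p = 0.00258). Among 44 measured PPARA targets 6 rose (13.6%, against 6.21% of all genes) and 5 fell (11.4%, against 12.0%). The median of the list was -0.14, but 0.09 with quantile normalization, where 10 rose and 2 fell, and 0.31 with the SD covariate, where 5 rose and 1 fell. Leaving out low-fat replicate 2 or 4 or high-fat replicate 13, 14 or 16 left 2 or 3 falls. Besides Apoa4, Ppara and Pex11a, those that rose were the peroxisomal transporter Abcd2 (0.54 ± 0.10), the phosphatidylcholine carrier Pctp (0.74 ± 0.16) and the droplet protein Cidea (0.77 ± 0.21). Cidea had overlapping groups and was no longer called without high-fat replicate 15 or 16 (adjusted p up to 0.0555). The members with the smallest p among those that fell were Cyp4a12b, a male-biased fatty acid hydroxylase (-1.14 ± 0.23), and Retsat, a retinol saturase (-0.94 ± 0.24). The classical targets Cyp4a14 (-0.25 ± 0.36, adjusted p = 0.672) and Ehhadh (-0.36 ± 0.49, adjusted p = 0.647) had overlapping groups. Of 14 genes of peroxisomal fatty acid oxidation 3 fell and 1 rose, and of 10 peroxins, proteins of peroxisome assembly, 4 fell and 1 rose. With the SD covariate 1 rose and none fell in each list, with medians of 0.29 and -0.05. With the run block no member of either was called, with medians of -0.36 and -0.42. Among peroxisomal genes that fell was Phyh, which starts the breakdown of branched fatty acids (-0.51 ± 0.13). It was not called without low-fat replicate 4 (adjusted p = 0.0558). Also lower were Amacr, a racemase of branched fatty acids and bile acid precursors (-1.06 ± 0.23), and the membrane protein Pxmp2 (-0.57 ± 0.11).

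Of 20 genes of fatty acid synthesis 1 rose and 2 fell (5.0% and 10.0%), and of 18 of the sterol pathway 1 rose and 1 fell (5.6% each). These shares were below those of all genes, 6.21% and 12.0%. The counts changed with the scaling. With quantile normalization 5 genes of fatty acid synthesis rose, and with the SD covariate 5 of the sterol pathway rose and none fell. Elovl2, which lengthens polyunsaturated fatty acids, read 7.74, 8.25, 7.79 and 8.33 against 8.64, 9.05, 8.92 and 9.10, a difference of 0.90 ± 0.20 (adjusted p = 0.00608). Elovl3, an elongase of male-biased expression in liver, read 5.60, 5.52, 6.25 and 6.11 against 4.62, 4.81, 4.85 and 4.75, a difference of -1.12 ± 0.17 (adjusted p = 3.85e-04). The synthase Fasn was at 10.66, 10.69, 10.30 and 10.04 against 10.20, 10.33, 10.51 and 10.65, with a difference of 0.00 ± 0.15 (adjusted p = 0.998). The desaturase Scd1 was at 12.28, 12.52, 12.27 and 12.18 against 13.02, 12.56, 13.06 and 13.03; its groups did not overlap and its difference was 0.61 ± 0.21 (adjusted p = 0.0589). Scd1 was called higher with quantile normalization (0.75, adjusted p = 0.00812), the SD covariate (1.21, adjusted p = 0.00487) and the Gapdh covariate (0.81, adjusted p = 0.013). In the sterol pathway Hsd17b7 (0.79 ± 0.22) was no longer called without low-fat replicate 4 or high-fat replicate 15 or 16 (adjusted p up to 0.0752), and the isomerase Ebp fell (-0.61 ± 0.12). Hmgcs1, an early enzyme of the pathway, differed by 0.41 ± 0.24 (adjusted p = 0.237) and Sqle, squalene epoxidase, by 0.27 ± 0.18 (adjusted p = 0.318). Both were called higher with the SD covariate (Hmgcs1 by 1.14, adjusted p = 0.00665, and Sqle by 0.78, adjusted p = 0.0144). Around the lipid droplet, Plin4, a perilipin coat protein, read 6.30, 6.30, 6.09 and 6.08 against 6.80, 7.00, 6.67 and 6.60, a difference of 0.58 ± 0.10 (adjusted p = 9.35e-04), while the carboxylesterase Ces1d fell (-0.91 ± 0.14). The fatty acid importer Cd36 differed by 0.17 ± 0.15 (adjusted p = 0.457).

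Of 25 lipoprotein genes, 2 rose and 8 fell (8.0% and 32.0%, against 6.21% and 12.0% of all genes), with a median of -0.32. Beside Apoa4 the other that rose was Apoc2, the activator of lipoprotein lipase, at 10.25, 10.31, 10.26 and 10.52 against 11.00, 10.53, 10.90 and 10.97, a difference of 0.52 ± 0.11 (adjusted p = 0.00407). Apom, which carries sphingosine phosphate on high-density lipoprotein, read 8.71, 8.82, 9.16 and 9.20 against 8.21, 7.68, 7.77 and 7.82, a difference of -1.10 ± 0.15 (adjusted p = 1.30e-04). Apoh (-0.55 ± 0.12) and Apof (-0.53 ± 0.14) fell as well. The structural proteins of the main particles showed differences near 0, Apoa1 with a difference of -0.03 ± 0.11 (adjusted p = 0.881) and Apob with 0.01 ± 0.18 (adjusted p = 0.984). The falls numbered 3 without low-fat replicate 4 and 4 or 5 without low-fat replicate 2 or any 1 of the high-fat arrays. With quantile normalization, the SD covariate, the run block or the removal of high-fat replicates 13 and 16 the list held 1 fall.

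Bile acid genes were called lower in 8 of 16 cases and higher in none, with a median of -0.39, and in 5 without low-fat replicate 3 or 4 or high-fat replicate 13 or 14. Cyp2c70, which makes the muricholic acids of mice, read 8.89, 8.87, 9.43 and 9.29 against 7.99, 7.97, 7.76 and 7.99, a difference of -1.20 ± 0.15 (adjusted p = 1.02e-04). Slc27a5, which activates bile acids for conjugation, read 10.05, 10.03, 9.85 and 10.21 against 9.23, 9.30, 9.31 and 9.32, a difference of -0.74 ± 0.10 (adjusted p = 1.72e-04). The uptake carrier Slc10a1 (-0.66 ± 0.13) and the sterol hydroxylase Cyp8b1 (-0.47 ± 0.10) fell. Cyp7b1, the hydroxylase of the acidic route, read 7.54, 8.36, 8.88 and 9.53 against 7.56, 7.34, 7.55 and 7.29; its groups overlapped, and the call (-1.14 ± 0.37, adjusted p = 0.0439) was lost without any of 7 arrays, all but low-fat replicate 1 (up to 0.161). The rate-limiting enzyme Cyp7a1 differed by -0.06 ± 0.25 (adjusted p = 0.893).

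Of 31 cytochrome P450 genes of drug metabolism and their regulators 16 fell and 1, Cyp2j5, rose, with a median of -0.45. On leaving out low-fat replicate 3 there were 10 falls, and 2 with the run block. Cyp1a2 read 11.29, 11.49, 11.61 and 11.70 against 10.80, 10.31, 10.21 and 9.92. The receptor Nr1i3 (CAR), which senses drugs, read 9.18, 9.34, 9.50 and 9.41 against 8.38, 8.23, 8.33 and 8.35, a difference of -1.04 ± 0.16 (adjusted p = 4.31e-04). Cyp2f2 fell (-0.84 ± 0.14), as did Cyp3a11, the main target of the receptor PXR (-0.93 ± 0.17). Of 35 conjugating enzymes 16 fell and none rose, with a median of -0.43, and 6 fell with the run block. The glutathione transferase Gsto1 read 8.98, 9.19, 8.98 and 9.21 against 8.05, 8.24, 8.01 and 8.23, a difference of -0.96 ± 0.13 (adjusted p = 1.20e-04), and Gstm6 read 9.65, 9.79, 9.63 and 9.75 against 8.90, 9.01, 8.92 and 8.75, a difference of -0.81 ± 0.08 (adjusted p = 2.03e-05). Gstt1 fell too (-0.72 ± 0.10). Related transferases can share probe sequence, so that values of single members are uncertain.

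The growth hormone axis and sex-biased liver genes had 14 falls and 1 rise among 32. Igfals, the liver protein that stabilises circulating IGF-I, read 9.13, 9.62, 9.58 and 9.51 against 8.20, 8.59, 8.36 and 8.36, a difference of -1.08 ± 0.11 (adjusted p = 2.15e-05). The receptor Ghr (-0.57 ± 0.14) and the growth factor gene Igf1 (-0.59 ± 0.13) fell. The signal transducer Stat5b was at 6.41, 6.37, 6.58 and 6.33 against 6.69, 6.82, 6.88 and 6.60, a difference of 0.33 ± 0.13 (adjusted p = 0.0887). Hsd3b5, Serpina12, Keg1, Lifr and Elovl3, given above, belong to the same list, as does Mup3, a major urinary protein (-0.44 ± 0.10). The exception was Cyp17a1, the steroid hydroxylase and lyase, which read 6.87, 7.12, 6.71 and 6.80 against 7.57, 7.96, 7.58 and 7.60, a difference of 0.80 ± 0.11 (adjusted p = 2.13e-04). Of 26 genes of steroid and glucocorticoid metabolism 3 rose and 8 fell (11.5% and 30.8%, against 6.21% and 12.0% of all genes). The falls numbered 4 or 5 without low-fat replicate 4 or high-fat replicate 15. The glucocorticoid receptor Nr3c1 was dim, at 3.19, 3.28, 3.46 and 3.14 against 3.67, 4.02, 3.64 and 3.82, and its call (0.52 ± 0.16, adjusted p = 0.0371) was lost without low-fat replicate 1, 2 or 4 or high-fat replicate 14, 15 or 16 (up to 0.108).

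Genes of protein production and breakdown were also among those that fell. Of 33 measured cytosolic ribosomal proteins 15 fell and 2 rose, with a median of -0.43. Rpl7a read 10.55, 10.60, 10.65 and 10.83 against 10.05, 9.68, 9.87 and 9.80, a difference of -0.81 ± 0.13 (adjusted p = 5.75e-04), and Rps3a1 read 10.57, 10.64, 10.53 and 10.65 against 10.15, 9.94, 9.79 and 9.85, a difference of -0.67 ± 0.11 (adjusted p = 5.00e-04). Rplp0 (-0.59 ± 0.10), Rpl8 (-0.55 ± 0.10) and Rps18 (-0.71 ± 0.12) fell. Those that rose were Rps29 (0.41 ± 0.11), not called without low-fat replicate 3 or 4 or high-fat replicate 15 (adjusted p up to 0.0784), and Rpl32 (0.59 ± 0.16), not called without low-fat replicate 4 (0.0738). Ribosomal proteins have many near-identical pseudogene copies. Of 39 proteasome genes 14 fell and none rose, and 8 or 9 fell without low-fat replicate 4 or high-fat replicate 15 or 16. Psmb6, a catalytic subunit, read 9.48, 9.31, 9.46 and 9.48 against 8.64, 8.63, 8.60 and 8.72, a difference of -0.79 ± 0.09 (adjusted p = 4.55e-05), and Psmb1 differed by -0.76 ± 0.10. Psma4 (-0.67 ± 0.14) and the activator Psme3 (-0.53 ± 0.12) fell. Of 49 genes of ER chaperones, the unfolded protein response and heat shock 7 fell and 2 rose, 14.3% and 4.1%, shares near those of all genes. On leaving out low-fat replicate 4 there were 3 falls and on leaving out high-fat replicate 13 4, and none was called with the run block. Those named were Sec61b of the translocon at -0.87 ± 0.14, Manf at -0.81 ± 0.17, the stress factor Atf4 at -0.54 ± 0.10 and the translocon-associated Ssr1 at 0.82 ± 0.19. Of 33 antioxidant genes 10 fell and 2 rose. After Sod1 these included its copper chaperone Ccs (-0.83 ± 0.19) and the thioredoxins Txn1 (-0.62 ± 0.12) and Txn2 (-0.54 ± 0.10).

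Amino acid breakdown and the urea cycle had 13 of 46 genes lower and 1 higher. On leaving out low-fat replicate 4 there were 8 lower, with the run block 1, and with the SD covariate 3 were lower and 5 higher. Agxt, the peroxisomal enzyme that clears glyoxylate, read 8.99, 8.98, 8.99 and 9.56 against 8.12, 8.27, 8.29 and 7.97, a difference of -0.97 ± 0.16 (adjusted p = 5.98e-04). Gnmt, which uses up surplus methyl groups, fell (-0.48 ± 0.08), as did Dmgdh, which breaks down dimethylglycine (-0.70 ± 0.13). In the urea cycle, the entry enzyme Cps1 differed by -0.29 ± 0.14 (adjusted p = 0.155). Of 36 genes of glucose metabolism 2 rose and 5 fell, 5.6% and 13.9%, shares near those of all genes. The falls numbered 2 without low-fat replicate 4 or high-fat replicate 15 and 3 without low-fat replicate 2, and no member was called with the run block. G6pc, the glucose-6-phosphatase that releases glucose, read 11.00, 11.31, 11.39 and 11.28 against 10.50, 10.58, 10.72 and 10.63, a difference of -0.64 ± 0.11 (adjusted p = 7.67e-04), and the transporter that feeds it, Slc37a4, fell (-0.73 ± 0.15). Pck1, the control step of gluconeogenesis, differed by -0.12 ± 0.16 (adjusted p = 0.65). Pik3r1, a regulatory subunit of the kinase below the insulin receptor, read 5.15, 5.30, 5.15 and 5.43 against 6.46, 6.48, 6.23 and 6.02, a difference of 1.04 ± 0.17 (adjusted p = 7.48e-04). Of 38 complement and clotting genes 11 fell and 1 rose. The falls numbered 6 without low-fat replicate 2 or 4 or high-fat replicate 15 or 16, 4 with the SD covariate and 3 with the run block. Serpind1, an inhibitor of thrombin (-0.62 ± 0.07), C8g of the membrane attack complex (-0.86 ± 0.11), clotting factor F12 (-0.72 ± 0.10) and Proc, protein C (-0.79 ± 0.12), had the smallest p. Hamp, the iron hormone hepcidin, fell (-0.91 ± 0.19), and so did Ahsg, fetuin-A (-0.38 ± 0.08).

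Genes of the matrix, the cytoskeleton and growth control were among those that rose. Of 62 matrix genes 13 rose and 3 fell, 21.0% and 4.8%, with a median of 0.18. Col4a1 read 7.20, 6.33, 6.47 and 6.55 against 8.62, 8.06, 7.91 and 8.05, a difference of 1.52 ± 0.23 (adjusted p = 3.82e-04). Hspg2, the basement membrane proteoglycan perlecan, read 7.86, 7.98, 7.89 and 7.71 against 8.42, 8.41, 8.44 and 8.43, a difference of 0.57 ± 0.10 (adjusted p = 0.00152). Col1a1 rose by 0.52 ± 0.11, and Col5a2, at 4.74, 4.75, 4.69 and 4.90 against 6.68, 5.40, 5.51 and 5.31, rose with and without high-fat replicate 13, where it was highest (0.64, adjusted p = 0.00147 without it). Col18a1, the collagen that releases endostatin, fell (-0.59 ± 0.10). Without high-fat replicate 16 the list held 8 rises, without low-fat replicate 4 also 8, and without high-fat replicates 13 and 16 it held 3. The mean over 15 stellate cell markers was from 6.57 to 6.65 on the low-fat arrays and from 6.78 to 6.89 on the high-fat arrays, and 2 of them rose. Of 52 cytoskeletal and junction genes 10 rose and 2 fell (19.2% and 3.8%, against 6.21% and 12.0% of all genes). The rises numbered 6 without low-fat replicate 3 or high-fat replicate 13, 15 or 16, 4 without high-fat replicates 13 and 16, and 1 with the run block. Anxa2, a membrane-binding annexin, read 8.21, 8.11, 8.15 and 8.25 against 9.34, 9.04, 9.13 and 9.02, a difference of 0.95 ± 0.09 (adjusted p = 7.94e-06). The gap junction protein Gja1 (1.12 ± 0.20) and the non-muscle myosin Myh9 (1.01 ± 0.19) rose. The actin Actb read 6.60, 9.10, 9.60 and 9.50 against 5.79, 6.48, 6.73 and 6.05, a difference of -2.44 ± 0.58 (adjusted p = 0.00879), with low-fat replicate 1 inside the range of the high-fat arrays.

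Of 51 genes of cell cycle and growth control 13 rose and none fell, with a median of 0.20. Btg2, an antiproliferative early gene, read 8.08, 7.99, 8.01 and 7.85 against 8.65, 8.92, 8.56 and 8.35, a difference of 0.64 ± 0.11 (adjusted p = 7.67e-04). The growth factor Igf2 (0.55 ± 0.10), the cyclin Ccna2 (0.49 ± 0.09) and the death factor Bcl2l11 (0.43 ± 0.09) rose. Leaving out 1 array gave from 6 to 13 rises in this list, with 6 without low-fat replicate 4, 7 without high-fat replicate 15, 8 without high-fat replicate 16, and 5 without high-fat replicates 13 and 16. No member of it was called with the array run as a random block. In the circadian clock 3 of 20 genes, Csnk1e, Usp2 and Cry2, were called higher (15.0%, against 6.21% of all genes). Each of them was lost on leaving out 1 of several arrays (adjusted p up to 0.154). The core activator Arntl (-0.57 ± 0.24, adjusted p = 0.101) and the output factor Dbp (0.48 ± 0.29, adjusted p = 0.262) had overlapping groups. Among transcription factors of liver the retinoid receptor Rxra rose, at 7.98, 7.94, 7.88 and 7.83 against 8.63, 8.55, 8.49 and 8.68, a difference of 0.68 ± 0.16 (adjusted p = 0.0093).

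Many inflammatory genes were highest on 1 array. Of 45 chemokine, cytokine and NF-kB genes 19 were highest on high-fat replicate 13. In this list 7 rose and 2 fell with that array (15.6% and 4.4%, against 6.21% and 12.0% of all genes). Without that array 6 rose and 3 fell, and 1 rose without replicate 16 as well. The rises numbered 3 without low-fat replicate 4 and 4 without low-fat replicate 2 or 3, and no member was called with the run block. Ccl2 read 4.27, 4.04, 4.22 and 4.47 against 6.58, 5.00, 4.87 and 5.33, highest on replicate 13, and its difference without that array was 0.82 (adjusted p = 0.00196). Tnfaip3, a brake on NF-kB (0.45 ± 0.11), and Csf1, the macrophage growth factor (0.35 ± 0.09), rose, and the chemokines Ccl9 (-0.62 ± 0.14) and Cxcl12 (-0.52 ± 0.13) fell. Of 21 macrophage markers Cd14 and Lgals3 were called. Cd14, the co-receptor for endotoxin, read 7.74, 7.91, 7.88 and 7.66 against 8.76, 8.37, 8.29 and 8.41, a difference of 0.66 ± 0.10 (adjusted p = 3.85e-04). Lgals3 read 3.86, 3.98, 4.07 and 4.12 against 6.05, 4.50, 4.20 and 4.43, with a call (0.79 ± 0.27, adjusted p = 0.0487) that was lost without any of the low-fat arrays or high-fat replicate 14 (up to 0.0966). The median over the 21 markers was 0.27 with high-fat replicate 13 and -0.08 without it. Of 49 genes of histocompatibility and interferon 3 rose and 2 fell, 6.1% and 4.1%, against 6.21% and 12.0% of all genes. Their median went from 0.11 to -0.03 without high-fat replicate 13. Saa2, an acute-phase apolipoprotein, was at 8.67, 8.56, 8.92 and 9.46 against 11.91, 9.61, 9.51 and 9.60, with a difference of 1.25 ± 0.47 (adjusted p = 0.0726). Among 10 pancreatic markers 4 rose and 1 fell, against shares of 6.21% and 12.0% over all genes. The 4 that rose, Clps, Cel, Reg1 and Ctrb1, were highest on high-fat replicates 13 and 16. None of these 4 was called without those 2 arrays, and the list then held 1 fall. In the muscle list, 3 of 20 markers rose and 1 fell (15.0% and 5.0%). Those that rose were Tnnc2 (0.50 ± 0.12), Pvalb (0.53 ± 0.13) and Ckm (0.30 ± 0.09), the last not called without low-fat replicate 2, 3 or 4 or high-fat replicate 15 (adjusted p up to 0.095).

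**Figure D5:**
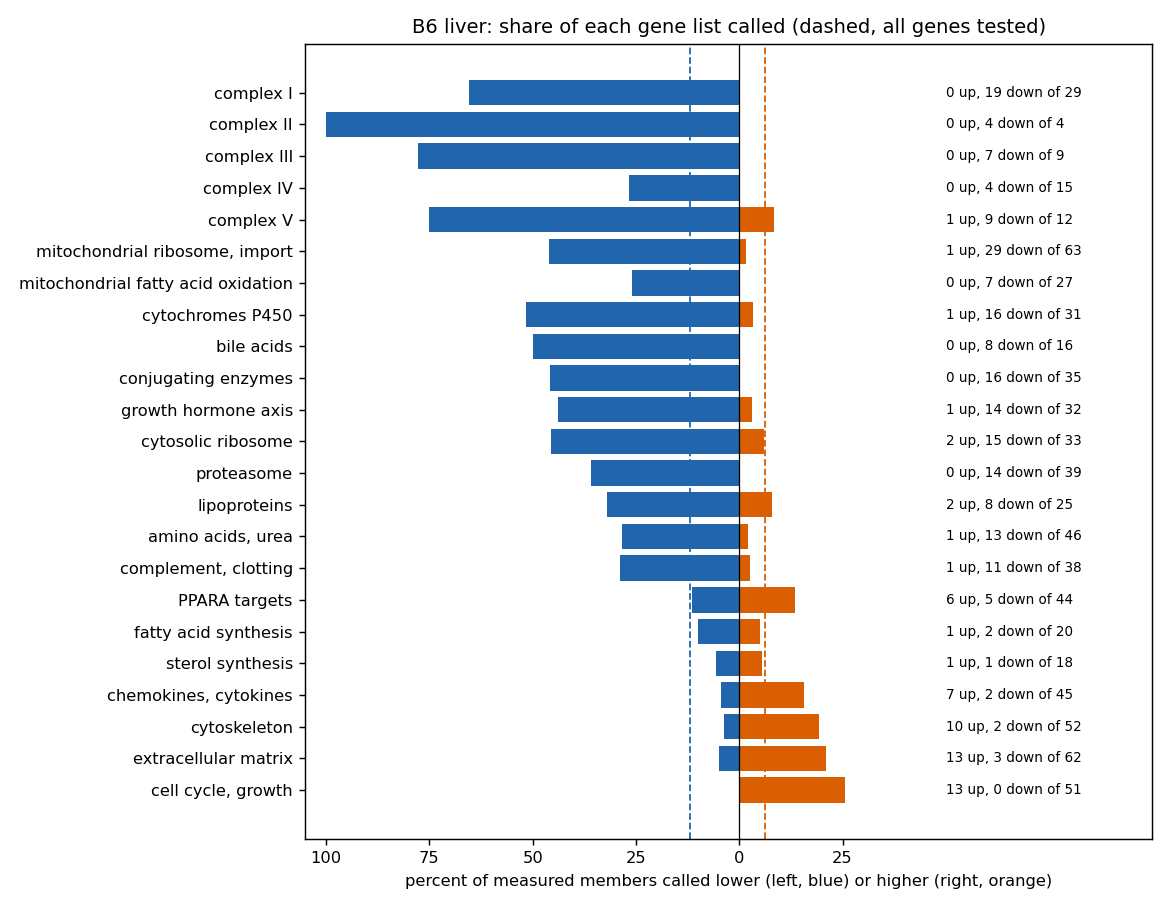
Share of the measured members of 23 gene lists called lower (blue, to the left) or higher (orange, to the right) on the high-fat diet in B6 liver, with the counts beside each bar. Dashed lines mark the shares over all genes, 12.0% lower and 6.21% higher. Respiratory complexes I, II, III and V extend furthest to the left and cell cycle genes, with 25.5%, furthest to the right.

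A further property went with the calls. In 5 groups of equal number by length of the gene in the genome, 15.9% of the shortest genes (up to 6.08 kb) were called lower and 5.5% higher. In the groups between, in order of length, 16.4%, 12.7% and 9.7% were called lower and 5.5%, 5.9% and 6.4% higher. Of the longest (58.6 kb and more) 5.3% were called lower and 7.7% higher. Over all genes the shares were 12.0% and 6.21%. From the shortest group to the longest the median differences were 0.01, -0.03, -0.01, 0.02 and 0.07. The part of gene length in these calls was not tested.

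The same diets in liver of 129S6 mice gave fewer calls, 5 higher and 14 lower. Of the 15 largest falls in B6, 11 were also negative in 129S6 and 3 were called there, Serpina12, Gsta2 and Lifr. Of the 15 largest rises in B6, 12 were also positive in 129S6 and none was called there. The share of all genes with the same sign in both strains was not counted. The difference between the strains in the response to diet, tested as an interaction, was called for 453 genes (5.49%), of which 382 (4.63%) were more negative in B6 and 423 were also called in B6. Hsd3b5 had a mean of 9.14 on the low-fat and 5.25 on high-fat arrays in B6 and 9.07 and 8.23 in 129S6, an interaction of -3.05 ± 0.59 (adjusted p = 0.00576). Apoa4 went from 9.58 to 11.99 in B6 and from 11.64 to 12.45 in 129S6, an interaction of 1.59 ± 0.26 (adjusted p = 0.0025). H2-Q1 had the smallest p of the genes named, with means of 5.51 and 7.18 in B6 and of 5.12 and 5.03 in 129S6 (1.76 ± 0.16, adjusted p = 2.59e-05). Col4a1 (1.94 ± 0.33) and Gja1 (1.29 ± 0.29) were more positive in B6, and Sec14l2, a lipid-binding protein (-1.71 ± 0.30), Mid1ip1, an activator of fatty acid synthesis (-1.51 ± 0.26), and Hgfac, the activator of hepatocyte growth factor (-1.47 ± 0.22), more negative. Of the 69 respiratory chain subunits 24 were more negative in B6 and none more positive. The median over these subunits was -0.02 in 129S6. The strains differed in how diet lay over the array runs. In B6 no low-fat array shared a run with a high-fat array. In 129S6 low-fat replicates 5 and 6 shared a run with all high-fat arrays, and low-fat replicates 11 and 12 lay in another. The interaction thus holds the run difference of B6, and the 2 cannot be told apart. Among the 129S6 low-fat arrays, replicate 11 had a Gapdh 3' minus 5' signal of 3.264. Without it 849 genes were called for the interaction, and from 263 to 299 without 129S6 high-fat replicate 8 or 9, B6 low-fat replicate 4 or B6 high-fat replicate 15.

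In skeletal muscle of B6 mice 2214 genes were called between the diets (26.8%), 1220 higher (14.8%) and 994 lower (12.0%). Of them 578 were also called in liver, 494 the same way and 84 in the opposite direction. Those called the same way, 389 lower and 105 higher, are 32.9% of the liver calls and 22.3% of the muscle calls. Gja1 rose by 1.12 in liver and 1.11 ± 0.30 in muscle, and Col4a1 by 1.52 and 0.97 ± 0.29. Among the falls, Sod1 differed by -2.35 in liver and -1.31 ± 0.42 in muscle, Ccdc58 by -1.29 and -1.18 ± 0.24, and Slirp, which stabilises mitochondrial transcripts, by -1.01 and -2.10 ± 0.48. In muscle the Gapdh 3' minus 5' signal was from 0.35 to 0.81 on 3 low-fat arrays and from 1.19 to 3.36 on 4 high-fat arrays, the opposite order to liver, while the SD over probe sets was lower on the high-fat diet in both tissues (1.59 to 1.70 against 1.81 to 1.88 in muscle). Their part in the shared calls was not tested. In epididymal fat of B6 mice 23 genes were called (0.279%), of which 5 were also called in liver, 3 the same way and 2 in the opposite direction. The 3 were Cytip, an adaptor of blood cells (0.77 in liver and 1.32 ± 0.22 in fat), the chemokine Ccl8 (0.32 and 1.13 ± 0.17) and Pxmp2 (-0.57 and -0.60 ± 0.10).

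Some of the genes named have other probe sets that did not move in the same way. For Scd1, whose brightest probe set gave 0.61, a second gave 0.58 ± 0.22 (adjusted p = 0.0765) and the dimmest was called lower, at -0.62 ± 0.19 (adjusted p = 0.0353). A second probe set of F7, clotting factor VII, gave -0.92 ± 0.10 where the brighter gave 0.34 ± 0.09, a second one of Mid1ip1 gave 0.62 ± 0.18 where the brighter gave -0.73 ± 0.18, and a second one of Ghr gave 0.82 ± 0.34. Differences near 0 were seen for a second probe set of Gsdme (0.00 ± 0.10), Gna13 (0.13 ± 0.10), Myh9 (-0.14 ± 0.22), Psmb1 (0.15 ± 0.09), Etfb (0.10 ± 0.09), Ssr1 (-0.14 ± 0.13), Atp5g1 (-0.07 ± 0.10), Col18a1 (-0.10 ± 0.12), Cxcl12 (-0.05 ± 0.21), Rps29 (-0.10 ± 0.13) and Lifr (-0.26 ± 0.27). The F7 call was lost without low-fat replicate 4 or high-fat replicate 13 or 15 (adjusted p up to 0.0685). A second probe set of Ddx3x gave -0.21 ± 0.25. For Cd36 a second, dim with a mean level of 3.22, gave 0.34 ± 0.11 and was called higher (adjusted p = 0.0409). For Tnnc2 a second gave -0.04 ± 0.14, and for Bcl2l11 the dimmer ones gave 0.23 ± 0.11 and 0.10 ± 0.11, not called. For Mrps18a the 3 dimmer probe sets gave -0.16 ± 0.08, -0.05 ± 0.11 and -0.51 ± 0.13, against the direction of the brightest. Second probe sets of Atp5l (-0.25 ± 0.11), Igf1 (-0.44 ± 0.15), Slc10a1 (-0.51 ± 0.19), Proc (-0.50 ± 0.17), Mup3 (-0.26 ± 0.11) and Rxra (0.51 ± 0.20) had the sign of the first and were not called, and Ccs had one at 0.33 ± 0.12. For Lifr another gave -1.40 ± 0.21, and second probe sets of Ces1d (-0.97 ± 0.18), Cyp7b1 (-1.63 ± 0.23), Gstm6 (-0.85 ± 0.21) and Col1a1 (1.14 ± 0.24) and another of Col18a1 (-0.35 ± 0.09) and Cxcl12 (-0.44 ± 0.12) differed in the same direction as the first and were called.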

How the data were processed

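The values are the deposited log2 levels of Affymetrix MG-U74Av2 arrays, made by the authors with RMA (robust multi-array average), per the submitters' processing notes. Its version and the set of arrays normalized together remain unstated in the labels and file headers. Of 12488 probe sets, 66 control probe sets and those with several gene symbols (396) or none (1193) were left out, and 8251 genes were tested. All 16 liver arrays were fitted in limma 3.58.1 (R 4.3.3) with 1 mean per strain and diet, empirical Bayes variances and Benjamini-Hochberg adjustment, and the code was tested on simulated data. Muscle and fat were fitted in the same way, each on its own. Genes named are the 15 largest changes each way without overlap of the groups, up to 4 a list and direction by adjusted p, and defining members of a list. Array measures were compared by exact permutation tests in Python 3.11.15. The comparison, gene lists and members were chosen with earlier results of these data known, and the removal of high-fat replicates 13 and 16 together was chosen after their values were seen. Alternatives covered probe set choice, normalization, samples fitted, covariates, array run and each array left out. RMA keeps no read depth, and the number of arrays limits the precision. Sequences and gene lengths are from RefSeq, GRCm38.p6.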

Additional observations from a re-analysis of the deposited data

Results flagged for a closer look

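For the genes named, each group of 4 arrays was searched for an array whose gap to the nearest other was too large a part of the group's range by Dixon's test, which chance gives in about 1 of 20 groups. Among 358 groups 26 had such an array, 9 of them high-fat replicate 13, 5 low-fat replicate 4 and none high-fat replicate 16. The genes searched include Cd74, Gbp2 and Acta1, which were picked out after their values were seen and are among those found. The counts therefore cannot be set against the share that chance gives.

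High-fat replicate 13 was high for 5 genes of immunity or the matrix. Cd74 read 12.51 where the other high-fat arrays reached at most 10.01, Gbp2 read 8.76 (at most 5.71), Saa2 11.91 (at most 9.61), Lgals3 6.05 (at most 4.50) and Col5a2 6.68 (at most 5.51). The thioredoxin Txn1 at 10.45 and the troponin Tnnc2 of fast muscle at 7.54 were high on that array too, and the bile acid ligase Slc27a5 at 9.23 and Dmgdh at 8.28 were low. The part of other cell types in these values was not tested.

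High-fat replicate 14 was low for albumin, Alb, at 12.62 (13.33 to 13.42 on the others) and for Scd1 at 12.56, and high for Cyp17a1 at 7.96. High-fat replicate 15 was low for Cyp2c70 at 7.76 and Psmb1 at 8.57.

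Low-fat replicate 1 was low for Actb at 6.60, Sod1 at 9.98 and Apof at 8.81. Low-fat replicate 2 was low for Psmb6 at 9.31, and low-fat replicate 3 for Retsat at 9.60, Hsd17b10 at 10.39 and Gja1 at 4.97. Low-fat replicate 4 was high for Acta1 at 7.48, Agxt at 9.56, Amacr at 8.38 and Txn2 at 10.10 and low for Clps at 7.40.

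The response to diet differed between B6 and 129S6 liver, by the limma interaction, most for Actb, with -3.78 ± 0.82 (adjusted p = 0.013). In this gene the mean went from 8.70 to 6.26 in B6 and from 7.14 to 8.48 in 129S6. The other genes more negative in B6 were Hsd3b5 (-3.05), Sod1 (-2.01), Sec14l2 (-1.71), Mid1ip1 (-1.51) and Hgfac (-1.47). Those more positive were Col4a1 (1.94), H2-Q1 (1.76), Apoa4 (1.59), Cd99 (1.50), Gja1 (1.29) and Tceal9 (1.28). Leaving out 1 array raised the adjusted p to as much as 0.109 for Sod1 and 0.0677 for Cd99 and Tceal9, while the other 9 were called under each such removal.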

How the results depend on the processing

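No paired analysis was possible because the B6 low-fat and high-fat arrays share no replicate number. Of 1502 genes called for diet, 111 were called with the array run as a random block, whose correlation was 0.399, and as a fixed block it could not be fitted since 1 run holds the low-fat arrays alone. Array weights gave 2684 calls, and the removal of high-fat replicates 13 and 16, which also leaves fewer arrays, gave 563. Leaving out 1 array gave from 842 (without low-fat replicate 4) to 1429 calls (without low-fat replicate 1). The SD of the array as a covariate gave 466 higher and 540 lower, against 512 and 990 without it. The other alternatives were within 1.5 times of the count reported, from 1276 calls with quantile normalization to 2194 with the B6 arrays alone. For the difference between strains, 453 genes became 285 with quantile normalization and 822 with the SD covariate, and from 263 (without 129S6 high-fat replicate 9) to 849 (without 129S6 low-fat replicate 11) on leaving out 1 array. The cause of these changes was not tested.

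Of 154 named genes that were called, 132 were called whichever array was left out, 130 with quantile normalization, 139 with the Gapdh covariate, 90 with the SD covariate, 50 with the run block and 108 without high-fat replicates 13 and 16. None of the called genes changed sign in these fits. With the mean over the probe sets of a gene, 3 named genes did, Ghr to 0.13, Mrps18a to -0.05 and F7 to -0.29.

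The falls counted in lists became fewer, in the order quantile normalization, SD covariate, run block and removal of replicates 13 and 16. They were 26, 10, 7 and 17 of 29 for the mitochondrial ribosome and import, 11, 6, 2 and 9 of 16 for cytochromes P450 and 14, 9, 6 and 12 of 16 for conjugating enzymes. For bile acids they were 3, 4, 1 and 3 of 8, for the growth hormone axis 9, 6, 5 and 10 of 14, for the cytosolic ribosome 9, 10, 2 and 14 of 15 and for the proteasome 9, 2, 2 and 8 of 14. With the SD covariate 3 proteasome genes and 5 of amino acid breakdown rose. The 10 falls of antioxidant genes became 4, 3, 0 and 3. Among rises, those of PPARA targets became 10, 5, 1 and 5 from 6, and those of the matrix 17, 10, 0 and 3 from 13.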
